A study of Homo sapiens with 16 samples.

Results

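The genes described here are 10 human genes of the AMPK and mTOR pathways, taken by name from the 20037 protein-coding genes of a RefSeq table of the hg38 assembly. They are PRKAA1, PRKAA2 and PRKAG2 of AMPK, TSC1 and TSC2 of the TSC complex, MTOR and RPTOR of mTOR complex 1 (mTORC1), and the mTORC1 targets RPS6KB1, EIF4EBP1 and EIF4EBP2. Each gene was followed through ChIP-seq peaks of HDGF, a chromatin-associated protein, and INTS13, a subunit of the Integrator complex, which cleaves nascent RNA. The design text asks whether starvation, or loss of HDGF, goes with a change in where INTS13 sits on the genome. All cells were HEK293T, an established human embryonic kidney line, and all reads were paired-end, 150 bp long. HDGF was immunoprecipitated from cells kept for 24 h in glucose-free medium (starved cells) and from cells given a control depletion (control-depleted cells). INTS13 was immunoprecipitated from cells depleted of HDGF for 72 h with siPOOL siRNAs, from cells starved of glucose for 24 h, and from control-depleted cells. The labels state no control depletion for the starved cells, and peak lists hold no measure of the HDGF level, so the depletion was not checked here.

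Per the labels, 1 HDGF antibody served both HDGF groups. The INTS13 antibody came from Bethyl in the HDGF-depleted and control-depleted groups and from Proteintech in the starved group, so starvation and antibody cannot be told apart for INTS13. Each group had 2 labelled replicates and a single deposited list of peaks. The values therefore carry no error between replicates, and no difference between lists was tested. On the main chromosomes the HDGF lists held 68138 peaks in starved cells and 106674 in control-depleted cells. The INTS13 lists held 105994 peaks after HDGF depletion, 15639 in starved cells and 31233 in control-depleted cells. The mean background that the deposited folds and p-values imply was 9.84 reads per position for HDGF in starved cells and 6.69 in control-depleted cells. For INTS13 it was 4.20 after HDGF depletion, 15.2 in starved cells and 6.40 in control-depleted cells. These are reads before scaling. For starved cells the values imply that reads were scaled, by 0.753 for HDGF and by 0.486 for INTS13. Both starved lists then share a scaled background of 7.41, on which their folds rest. In the other lists the scale was 1. The weakest listed peak had a fold of 2.21 to 2.50 in the 5 lists, so a gene without a peak is one at which none was listed above about that level.

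AMPK is a kinase made of a catalytic alpha, a beta and a gamma subunit, and is switched on when the cell's ATP falls, for example without glucose. It phosphorylates TSC2 and Raptor, the product of RPTOR, and so holds mTORC1 back. mTORC1 in turn drives protein synthesis by phosphorylating S6 kinase, the product of RPS6KB1, and the eIF4E-binding proteins, the products of EIF4EBP1 and EIF4EBP2. Integrator acts on paused RNA polymerase II near the starts of protein-coding genes, so a peak at a start was looked for separately from peaks along the gene.

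Promoters are shown for 4 genes whose results below turn on a peak at or near the start: RPS6KB1, PRKAA2 and TSC1 for INTS13, and EIF4EBP2 for its strongest HDGF peak. Peaks also lay over or beside start regions of PRKAG2, TSC2 and RPTOR, whose promoters are not printed. Each sequence is the RefSeq sequence of GRCh38.p14 from 250 bases before the start to 30 bases from it, written 5′ to 3′ on the strand of the gene. RPS6KB1 is chr17:59892871-59893150, plus strand. PRKAA2 is chr1:56645064-56645343, plus strand. TSC1 is chr9:132944587-132944866, minus strand. EIF4EBP2 is chr10:70403895-70404174, plus strand. Capitals mark the GC box (GGGCGG), a cAMP-response core (TGACG), an NRF1-type core (GCGCATG) and a YY1-type core (AAGATGG), each searched on both strands.
RPS6KB1: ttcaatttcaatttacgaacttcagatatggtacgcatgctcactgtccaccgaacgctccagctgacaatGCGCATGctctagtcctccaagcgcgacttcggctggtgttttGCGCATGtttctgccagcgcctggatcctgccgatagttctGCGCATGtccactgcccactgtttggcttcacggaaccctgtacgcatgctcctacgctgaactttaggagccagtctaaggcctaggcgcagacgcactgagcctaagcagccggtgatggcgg
PRKAA2: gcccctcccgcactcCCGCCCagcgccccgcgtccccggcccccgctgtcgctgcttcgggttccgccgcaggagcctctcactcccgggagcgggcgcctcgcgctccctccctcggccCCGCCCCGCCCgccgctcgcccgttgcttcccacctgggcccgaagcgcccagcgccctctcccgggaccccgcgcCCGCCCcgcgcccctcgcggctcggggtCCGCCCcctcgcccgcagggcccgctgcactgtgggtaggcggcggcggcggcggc
TSC1: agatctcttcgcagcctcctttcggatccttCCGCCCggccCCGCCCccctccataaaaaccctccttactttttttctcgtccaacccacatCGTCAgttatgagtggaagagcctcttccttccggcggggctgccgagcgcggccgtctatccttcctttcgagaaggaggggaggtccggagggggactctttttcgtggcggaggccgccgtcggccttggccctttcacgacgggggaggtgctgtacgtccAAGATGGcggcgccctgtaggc
EIF4EBP2: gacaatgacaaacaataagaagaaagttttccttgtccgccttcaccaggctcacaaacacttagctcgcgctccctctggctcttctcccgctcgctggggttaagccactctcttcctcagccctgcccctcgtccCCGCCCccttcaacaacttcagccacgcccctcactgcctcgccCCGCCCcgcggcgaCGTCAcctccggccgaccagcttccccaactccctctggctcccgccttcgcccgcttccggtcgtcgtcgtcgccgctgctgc

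The RPS6KB1 promoter held 3 NRF1-type cores and no GC box. An NRF1-type core stood in 5.08% of 22199 protein-coding promoters of the same length, and a GC box in 55.3%. PRKAA2 held 5 GC boxes, of which adjoining ones share a base, in a promoter of 83.2% G and C, against a median of 62.1% over all of these promoters. TSC1 held 2 GC boxes, 1 cAMP-response core and, at its start, 1 YY1-type core. EIF4EBP2 held 2 GC boxes and 1 cAMP-response core. The cAMP-response core stood in 26.8% of promoters and the YY1-type core in 5.30%. The CCAAT box (CCAAT, 34.0% of promoters), the E-box (CACGTG, 8.05%) and the TATA box (TATAAA, 9.28%) were also searched and matched none of these 4 sequences. The NRF1-type and YY1-type letters were added to the search after the sequences had been read. A match describes letters and not a bound site.

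The gene window is the gene with 2500 bp on either side, and a gene held a peak where a peak covered at least 1 base of that window. HDGF peaks lay in 6 of the 10 windows in starved cells (60%, 95% exact interval 26.2 to 87.8) and in all 10 in control-depleted cells. That interval treats the genes as independent draws, which a set chosen by name is not, and holds no error between replicates. Over all protein-coding genes these shares were 41.1% in starved cells and 49.7% in control-depleted cells. INTS13 peaks lay in 9 of 10 windows after HDGF depletion, 4 of 10 in starved cells and 5 of 10 in control-depleted cells, against 51.2%, 11.6% and 13.2% of all protein-coding genes in those lists. The members are long genes, with a median of 55.7 kb against 24.1 kb for all protein-coding genes, and a long window meets more peaks. Among the 9947 genes at least as long as the shortest member, the HDGF shares were 41.3% in starved cells and 59.2% in control-depleted cells. The INTS13 shares among those genes were 62.9% after HDGF depletion, 13.7% in starved cells and 17.1% in control-depleted cells.

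Peaks were spread unevenly over the 10 genes. Over all windows there were 206 HDGF peaks in starved cells and 257 in control-depleted cells, and 195 INTS13 peaks after HDGF depletion, 55 in starved cells and 32 in control-depleted cells. PRKAG2 alone held 47.5% to 78.1% of the peaks of each list. Without PRKAG2 and RPTOR, the other 8 genes held 30 HDGF peaks in starved cells and 107 in control-depleted cells. Their INTS13 peaks numbered 40 after HDGF depletion, 19 in starved cells and 5 in control-depleted cells. Most of the peaks were weak. The median fold over background at the summit, the highest point of a peak, was 2.90 and 2.86 for HDGF in starved and control-depleted cells. It was 3.27, 3.01 and 2.97 for INTS13 after HDGF depletion, in starved and in control-depleted cells. A −log10 q of at least 10 was reached by 1 peak, an HDGF peak of starved cells at the end of TSC2. Folds, q-values and positions are the authors' values, and are used to describe and rank peaks within their own list.

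**Figure D1:**
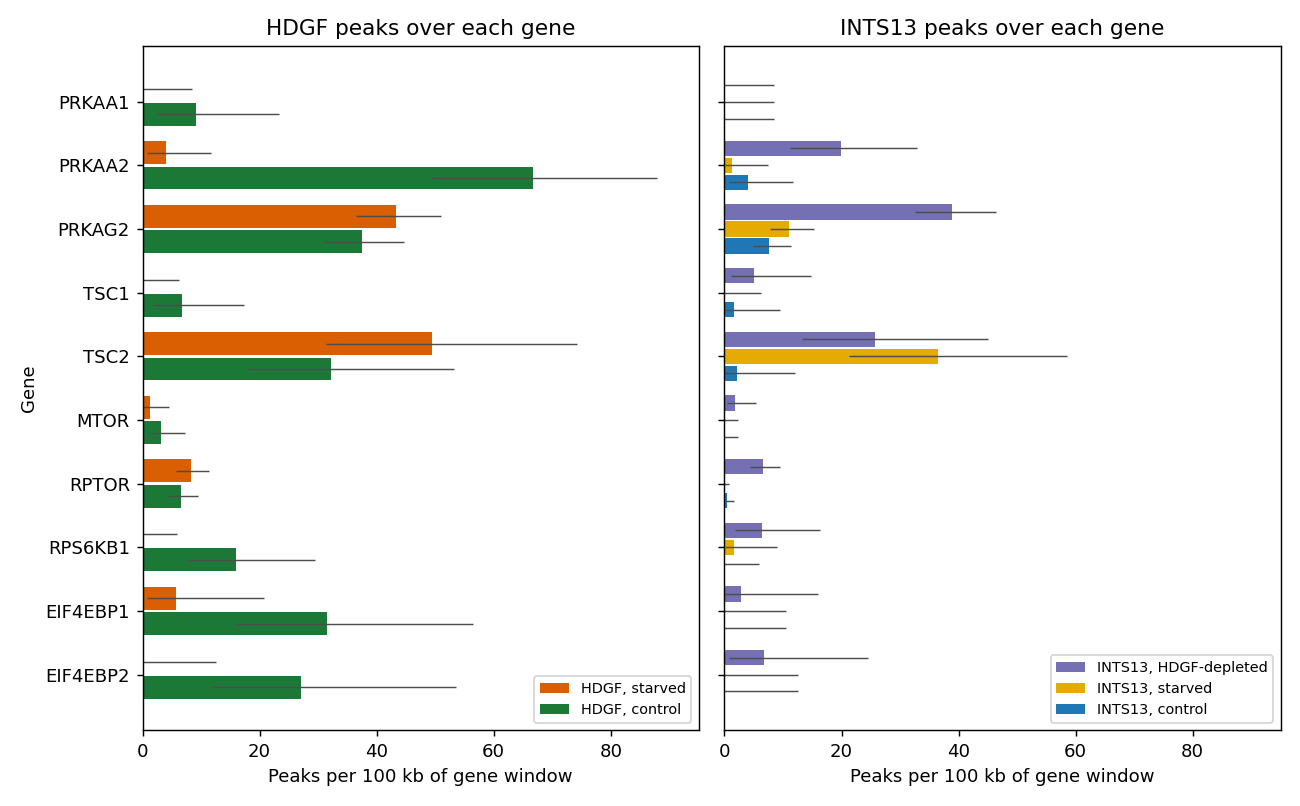
Peaks per 100 kb of gene window (horizontal axis) for the 10 genes, with HDGF in starved and control-depleted cells on the left and INTS13 after HDGF depletion, in starved and in control-depleted cells on the right. Lines are exact 95% Poisson intervals, which cover counting error only. At PRKAA2 the HDGF bar is at 4.0 in starved cells and 66.6 in control-depleted cells, and at TSC2 the INTS13 bar is at 36.6 in starved cells and 2.15 in control-depleted cells.

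PRKAA2, which encodes the alpha-2 catalytic subunit of AMPK, lies on chromosome 1 from 56645314 to 56715335, plus strand. HDGF had 3 peaks in its window in starved cells and 50 in control-depleted cells. That is 4.0 peaks per 100 kb in starved cells (95% exact Poisson interval 0.825 to 11.7) and 66.6 in control-depleted cells (49.5 to 87.9), and the intervals do not overlap. These intervals, and all others given per 100 kb, cover counting error only, and neighbouring peaks are not independent. The densities were not corrected for regional read depth. In starved cells the peaks covered 1.09% of the window, and in control-depleted cells 34.0%. The control-depleted summits ran along the whole gene, with 8, 14, 13 and 11 in 4 equal stretches from start to end and a median spacing of 1183 bp. Only 2.05% of protein-coding genes had as many HDGF peaks per 100 kb or more in control-depleted cells, while 31.3% had as many as PRKAA2 or more in starved cells.

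The surroundings of PRKAA2 moved the same way to a smaller extent. Over 1 Mb on either side HDGF had 8.80 peaks per 100 kb in starved cells and 19.2 in control-depleted cells. In the adjoining 100 kb before the gene there were 13 summits in starved cells and 51 in control-depleted cells, and in the 100 kb after it 9 in starved cells and 25 in control-depleted cells. The starved list is also shorter. With all 5 lists cut to their 15639 strongest peaks, PRKAA2 kept 0 HDGF peaks in starved cells and 13 in control-depleted cells. The strongest HDGF peak of starved cells stood 773 bp inside the start, with a fold of 3.07. The strongest of control-depleted cells lay far inside the gene at 56707317, with a fold of 3.90.

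INTS13 had a peak on the start of PRKAA2 in HDGF-depleted and in starved cells. After HDGF depletion a summit lay 41 bp past the start, with a fold of 3.46 from 17 reads (95% interval 9.90 to 27.2). In starved cells the only peak of the window had its summit 11 bp past the start, with a fold of 3.47 from 58 reads (44.0 to 75.0). These peaks overlapped, with summits 30 bp apart, and both cover most of the printed promoter, with all but the outermost of its GC boxes. In control-depleted cells no INTS13 peak was listed at the start, and the nearest of the 3 peaks in the window had its summit 10305 bp away from the HDGF-depleted one. Over the whole window INTS13 had 15 peaks after HDGF depletion, 1 in starved cells and 3 in control-depleted cells, or 20.0, 1.33 and 4.0 per 100 kb. Cut to equal list length, these became 2 after HDGF depletion, 1 in starved cells and 3 in control-depleted cells, which turns the order of HDGF-depleted and control-depleted cells. A long non-coding RNA gene, LOC101929935, starts 4 bp away on the other strand, so the start peaks cannot be assigned to either gene.

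**Figure D2:**
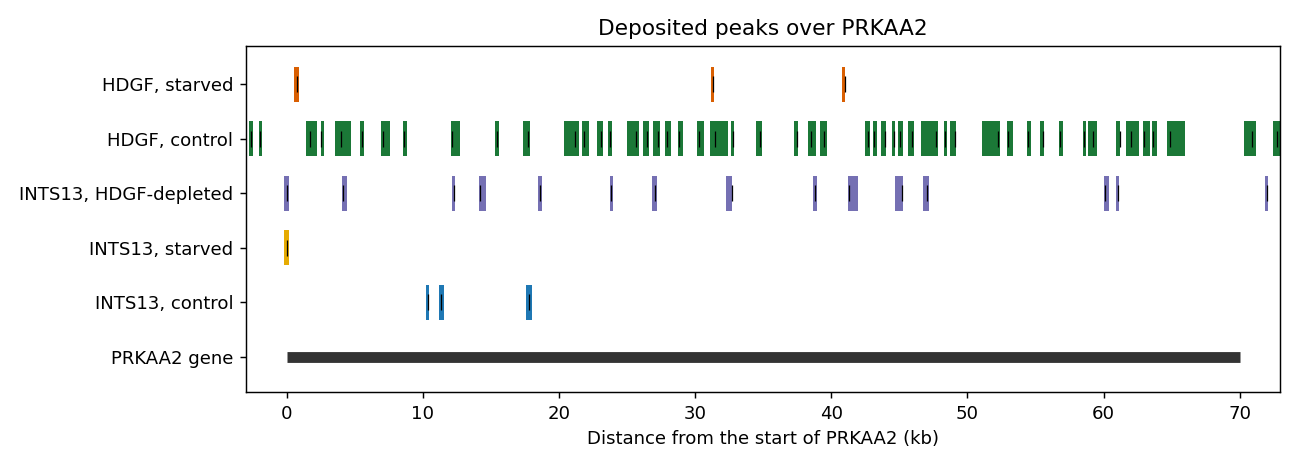
Deposited peaks (coloured boxes) and their summits (black ticks) over PRKAA2, by distance from its start in kb, with 1 row for each list and the gene as the grey bar. The HDGF row has 3 peaks in starved cells and 50 in control-depleted cells, and the INTS13 peaks of HDGF-depleted and starved cells stand together at the start.

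PRKAA1, which encodes the alpha-1 catalytic subunit, lies on chromosome 5 from 40759389 to 40798374, minus strand. HDGF had 0 peaks there in starved cells and 4 in control-depleted cells, with folds of up to 2.86. Their summits lay 4551 to 30635 bp inside the start, so none marked the start. At equal list length PRKAA1 kept 0 in either list. INTS13 had no listed peak in any of its 3 lists. Over 1 Mb on either side of PRKAA1 peaks were few, with 0 per 100 kb of HDGF in starved cells and 0.350 in control-depleted cells. Those of control-depleted cells lay close to the gene. The adjoining 100 kb before the start held 6 HDGF summits in control-depleted cells, and the 100 kb past the end held 1.

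PRKAG2, which encodes the gamma-2 subunit that binds AMP and ATP, lies on chromosome 7 from 151556127 to 151877115, minus strand, with 5 annotated starts in the promoter table. HDGF had 141 peaks in its window in starved cells and 122 in control-depleted cells, or 43.3 (36.4 to 51.0) and 37.4 (31.1 to 44.7) per 100 kb. INTS13 had 127 peaks after HDGF depletion, 36 in starved cells and 25 in control-depleted cells, or 39.0, 11.04 and 7.67 per 100 kb. The intervals of the HDGF densities overlap, as do those of INTS13 in starved cells (7.73 to 15.3) and control-depleted cells (4.96 to 11.3). By the average over 1 Mb on either side, PRKAG2 lay in a peak-rich region in every list. Over 1 Mb on either side HDGF had 21.8 peaks per 100 kb in starved cells and 33.3 in control-depleted cells, where chromosome 7 as a whole had 2.04 and 2.88 in those lists. INTS13 had 33.4 on either side after HDGF depletion, 7.65 in starved cells and 6.45 in control-depleted cells, where the chromosome had 2.98, 0.507 and 0.522. Right beside the gene INTS13 in starved cells was sparser. The adjoining 100 kb past the end held 39 INTS13 summits after HDGF depletion, 2 in starved cells and 11 in control-depleted cells. The 100 kb before the outermost start held 40, 1 and 12 in those lists. The part of the surroundings in the PRKAG2 counts was not tested. Cut to equal list length, PRKAG2 kept 26 HDGF peaks in starved cells and 6 in control-depleted cells. Its INTS13 peaks then numbered 12 after HDGF depletion, 36 in starved cells and 7 in control-depleted cells, so the order of HDGF-depleted and starved cells turned.

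Of the 141 HDGF peaks of PRKAG2 in starved cells, 43 overlapped a peak of control-depleted cells (30.5%), and of the 122 of control-depleted cells 44 did (36.1%). Over all peaks of the lists these shares were 34.9% in starved cells and 21.0% in control-depleted cells. The starved summits leaned towards the first part of the gene, with 40, 49, 29 and 21 in 4 equal stretches from the start. In control-depleted cells these stretches held 36, 32, 25 and 26. For INTS13, after HDGF depletion 13 of 127 peaks (10.2%) overlapped a peak of control-depleted cells, and 13 of the 25 of control-depleted cells did (52.0%). In starved cells 3 of 36 did (8.33%), or 3 of 25 of control-depleted cells (12.0%). The shares over all INTS13 peaks were 14.4% after HDGF depletion and 50.3% in control-depleted cells, and 40.6% in starved cells and 22.2% in control-depleted cells. After HDGF depletion a weak INTS13 peak lay 97 bp before the outermost start, with a fold of 3.08 from 15 reads, where the antisense RNA gene PRKAG2-AS1 also starts.

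TSC2, whose product tuberin is the GTPase-activating subunit of the complex that switches off Rheb, lies on chromosome 16 from 2047985 to 2089491, plus strand. HDGF covered 67.6% of its window in starved cells with 23 peaks, and 12.6% in control-depleted cells with 15 peaks. Per 100 kb that is 49.5 peaks in starved cells (31.4 to 74.2) and 32.3 in control-depleted cells (18.1 to 53.2), so the intervals overlap while the covered share differs widely. The widest peak of starved cells was 10457 bp, from 2080660 to 2091116, and the widest of control-depleted cells 1024 bp. That wide peak was the strongest HDGF peak of the 10 genes in the starved list, with a fold of 4.78 from 52 reads and a −log10 q of 11.8. Its summit lay 871 bp past the end of TSC2, over the neighbouring gene PKD1, whose end shares 784 bp with the end of TSC2. It ranked among the strongest 0.613% of its list.

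Nearly all HDGF peaks of control-depleted cells at TSC2 fell on ground that was also covered in starved cells. Of the 15 peaks of control-depleted cells, 14 overlapped one of starved cells (93.3%), while 9 of the 23 of starved cells did (39.1%). Over all HDGF peaks the shares were 21.0% in control-depleted cells and 34.9% in starved cells. Peaks of starved cells covered 67.6% of the TSC2 window, and the part of that coverage in the overlap was not tested. The surroundings moved the same way, with 20.3 HDGF peaks per 100 kb over 1 Mb on either side in starved cells and 9.05 in control-depleted cells. In the adjoining 100 kb past the gene's end there were 43 summits in starved cells and 6 in control-depleted cells, and in the 100 kb before its start 44 in starved cells and 40 in control-depleted cells. Cut to equal list length, TSC2 kept 13 HDGF peaks in starved cells and 1 in control-depleted cells.

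INTS13 was spread along TSC2 in starved cells as well. It had 12 peaks after HDGF depletion, 17 in starved cells and 1 in control-depleted cells. Per 100 kb that is 25.8 after HDGF depletion (13.3 to 45.1), 36.6 in starved cells (21.3 to 58.5) and 2.15 in control-depleted cells (0.0544 to 12.0). Both intervals of the treated lists lie above that of control-depleted cells. Cut to equal list length, TSC2 kept 0 INTS13 peaks after HDGF depletion, 17 in starved cells and 0 in control-depleted cells. The INTS13 list of starved cells is the shortest and is not shortened by this. Over 1 Mb on either side INTS13 had 6.0 peaks per 100 kb after HDGF depletion, 2.05 in starved cells and 0.50 in control-depleted cells. Close to the gene there were more. The adjoining 100 kb before the start held 17 INTS13 summits after HDGF depletion, 15 in starved cells and 5 in control-depleted cells. The 100 kb past the end held 2, 5 and 0 in those lists. Of all protein-coding genes, 7.47% after HDGF depletion, 0.544% in starved cells and 9.54% in control-depleted cells had as many INTS13 peaks per 100 kb as TSC2 or more. No INTS13 peak of starved cells at TSC2 overlapped the single peak of control-depleted cells. At the start, INTS13 summits of HDGF-depleted cells stood 468 bp before it and 498 bp past the nearest of its 2 annotated starts, with folds of 3.27 and 3.08. Neither starved nor control-depleted cells had an INTS13 summit within 2500 bp of a TSC2 start. NTHL1 begins 151 bp from TSC2 on the other strand.

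**Figure D3:**
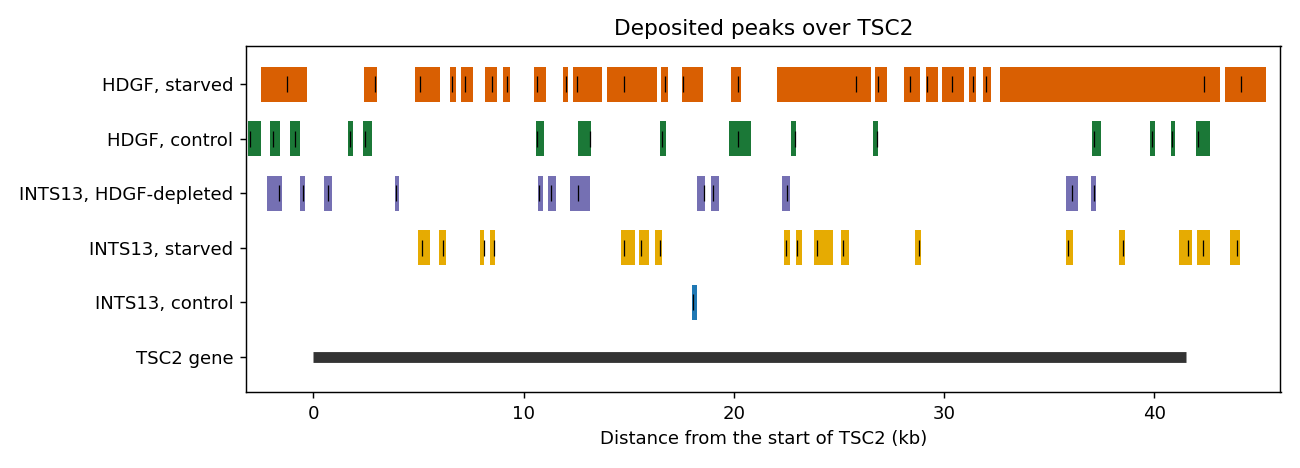
Deposited peaks (coloured boxes) and their summits (black ticks) over TSC2, by distance from its start in kb, with 1 row for each list and the gene as the grey bar. HDGF boxes cover 67.6% of the window in starved cells and 12.6% in control-depleted cells, and INTS13 has 17 peaks in starved cells and 1 in control-depleted cells.

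TSC1, which encodes hamartin, the partner that stabilises tuberin, lies on chromosome 9 from 132891349 to 132945378, minus strand. HDGF had 0 peaks there in starved cells and 4 in control-depleted cells, with folds of up to 2.99, and 0 in both lists at equal list length. Over 1 Mb on either side HDGF ran the other way, with 4.45 peaks per 100 kb in starved cells and 1.85 in control-depleted cells. INTS13 stood on the start of TSC1 after HDGF depletion and in control-depleted cells. After HDGF depletion its summit lay 83 bp before the start, with a fold of 3.85 from 19 reads (11.4 to 29.7). In control-depleted cells it lay 35 bp past the start, with a fold of 3.65 from 26 reads (17.0 to 38.1). At equal list length the start peak of control-depleted cells was kept and that of HDGF-depleted cells was not. The peaks overlapped, with summits 118 bp apart on either side of the printed YY1-type core. In starved cells INTS13 had no peak in the window, and the nearest summit was 360332 bp from that of control-depleted cells. The start of TSC1 was listed with the Bethyl antibody in both lists and not with the Proteintech antibody in starved cells. GFI1B begins 915 bp away on the other strand.

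MTOR, which encodes the kinase of both mTOR complexes, lies on chromosome 1 from 11106535 to 11262551, minus strand. HDGF had 2 peaks there in starved cells and 5 in control-depleted cells, and none of these overlapped. The strongest of control-depleted cells lay 4107 bp inside the start with a fold of 3.90. Both peaks of starved cells had a fold of 2.72, where the lowest of that list was 2.27. INTS13 had 3 peaks after HDGF depletion, with folds of 3.27 to 3.66, and 0 in starved and 0 in control-depleted cells. At equal list length MTOR kept 0 INTS13 peaks in each of the 3 lists. It kept 0 HDGF peaks in starved cells and 1 in control-depleted cells. No list had a summit within 2500 bp of the MTOR start. The MTOR window had 1.24 HDGF peaks per 100 kb in starved cells and 3.11 in control-depleted cells, where chromosome 1 as a whole had 7.30 and 12.0. Over 1 Mb on either side HDGF had 4.70 in starved cells and 4.0 in control-depleted cells, nearer to the gene than the chromosome. The adjoining 100 kb past the end held 8 HDGF summits in starved cells and 18 in control-depleted cells, and the 100 kb before the start 0 and 4.

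RPTOR, which encodes Raptor, the substrate-binding subunit of mTORC1, lies on chromosome 17 from 80544838 to 80966368, plus strand, and is the longest of the 10 genes at 421.5 kb. HDGF had 35 peaks there in starved cells and 28 in control-depleted cells, or 8.21 (5.72 to 11.4) and 6.56 (4.36 to 9.49) per 100 kb, with overlapping intervals. The summits were spread differently along the gene. In starved cells 4, 3, 8 and 20 summits fell in 4 equal stretches from start to end, and in control-depleted cells 11, 6, 3 and 7. Of the 35 peaks of starved cells 4 overlapped one of control-depleted cells (11.4%), and 4 of 28 did the other way (14.3%), where all HDGF peaks gave 34.9% and 21.0%. The strongest HDGF peak of starved cells lay near the end of the gene at 80960668, with a fold of 4.33, and that of control-depleted cells at 80717508, with a fold of 3.77. Beyond the end, the adjoining 100 kb held 23 HDGF summits in starved cells and 9 in control-depleted cells. That is the same direction as in the last stretch of the gene. Before the start, the adjoining 100 kb held 7 in starved cells and 0 in control-depleted cells, the other way from the first stretch. Over 1 Mb on either side HDGF had 20 peaks per 100 kb in starved cells and 9.2 in control-depleted cells. INTS13 had 28 peaks after HDGF depletion, 0 in starved cells and 2 in control-depleted cells. Per 100 kb that is 6.56 after HDGF depletion (4.36 to 9.49), 0 in starved cells (up to 0.865) and 0.469 in control-depleted cells (0.0568 to 1.69). The surroundings were much alike, with 6.95, 0.4 and 0.3 INTS13 peaks per 100 kb over 1 Mb on either side in those lists. None of the 28 overlapped a peak of control-depleted cells. Cut to equal list length, RPTOR kept 0 INTS13 peaks in each of the 3 lists, and 4 HDGF peaks in starved cells and 2 in control-depleted cells.

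RPS6KB1, which encodes the S6 kinase that mTORC1 activates, lies on chromosome 17 from 59893121 to 59950574, plus strand, and held the INTS13 peak with the highest fold of the 10 genes in the HDGF-depleted list. That peak ran from 59893042 to 59893355, with its summit 62 bp past the start. Its fold was 5.39 from 27 reads (17.8 to 39.3), its −log10 q was 9.30, and it ranked among the strongest 0.646% of its list. In starved cells a peak from 59893058 to 59893306 had its summit 36 bp past the start, with a fold of 3.41 from 57 reads (43.2 to 73.9). The peaks overlapped, with summits 26 bp apart, both just past the printed bases. All 3 NRF1-type cores lie before the upstream edge of both peaks. In control-depleted cells no INTS13 peak was listed over RPS6KB1, and the nearest summit was 568030 bp away from that of HDGF-depleted cells. With the lists cut to equal length RPS6KB1 kept 1 INTS13 peak after HDGF depletion, 1 in starved cells and 0 in control-depleted cells. TUBD1 begins 178 bp away on the other strand, so these peaks cannot be assigned to either gene.

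HDGF did not share the INTS13 position at RPS6KB1. It had 0 peaks in the window in starved cells and 10 in control-depleted cells, or 0 (up to 5.91) and 16.01 (7.68 to 29.4) per 100 kb, and these intervals do not overlap. At equal length it kept 0 in starved cells and 2 in control-depleted cells. The nearest HDGF summit to the INTS13 summit of HDGF-depleted cells was 126104 bp away in starved cells and 2605 bp away in control-depleted cells. The summits of control-depleted cells ran from 2667 to 53608 bp inside the start, with folds of up to 3.51. Over 1 Mb on either side HDGF had 0.450 peaks per 100 kb in starved cells and 7.70 in control-depleted cells, so its surroundings moved the same way.

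EIF4EBP2 and EIF4EBP1 encode proteins that bind eIF4E and block cap-dependent translation until mTORC1 phosphorylates them. EIF4EBP2 lies on chromosome 10 from 70404145 to 70428618, plus strand. HDGF had 0 peaks there in starved cells and 8 in control-depleted cells, or 0 (up to 12.5) and 27.1 (11.7 to 53.5) per 100 kb, and these intervals overlap slightly. At equal list length it kept 0 in starved cells and 2 in control-depleted cells. The strongest peak of control-depleted cells ran from 70403364 to 70403988 with its summit 465 bp before the start. Its fold was 4.29 from 32 reads (21.9 to 45.2), the highest HDGF fold of the 10 genes in that list. Its edge reaches into the first bases of the printed promoter and ends before its GC boxes. The nearest HDGF summit of starved cells was 29815 bp away. The surroundings of EIF4EBP2 ran the other way from the gene, with 9.65 HDGF peaks per 100 kb over 1 Mb on either side in starved cells and 5.55 in control-depleted cells. INTS13 had 2 peaks after HDGF depletion, both near the end of the gene, the stronger with a fold of 3.66, and 0 in starved and 0 in control-depleted cells. At equal list length EIF4EBP2 kept 0 INTS13 peaks in each list.

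EIF4EBP1 lies on chromosome 8 from 38030534 to 38060365, and the promoter table used here gives it no start. HDGF had 2 peaks there in starved cells and 11 in control-depleted cells, or 5.74 (0.695 to 20.7) and 31.6 (15.8 to 56.5) per 100 kb, with overlapping intervals and no overlapping peaks. With equal list lengths EIF4EBP1 kept 1 HDGF peak in each list. Both peaks of starved cells lay by the end with the higher coordinate, with folds of up to 3.25. The strongest of control-depleted cells lay 1649 bp inside the other end, with a fold of 3.90. Over 1 Mb on either side HDGF had 3.30 peaks per 100 kb in starved cells and 10.8 in control-depleted cells. INTS13 had 1 peak after HDGF depletion, with a fold of 4.23, and 0 in starved and 0 in control-depleted cells. At equal list length that 1 peak was kept.

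**Figure D4:**
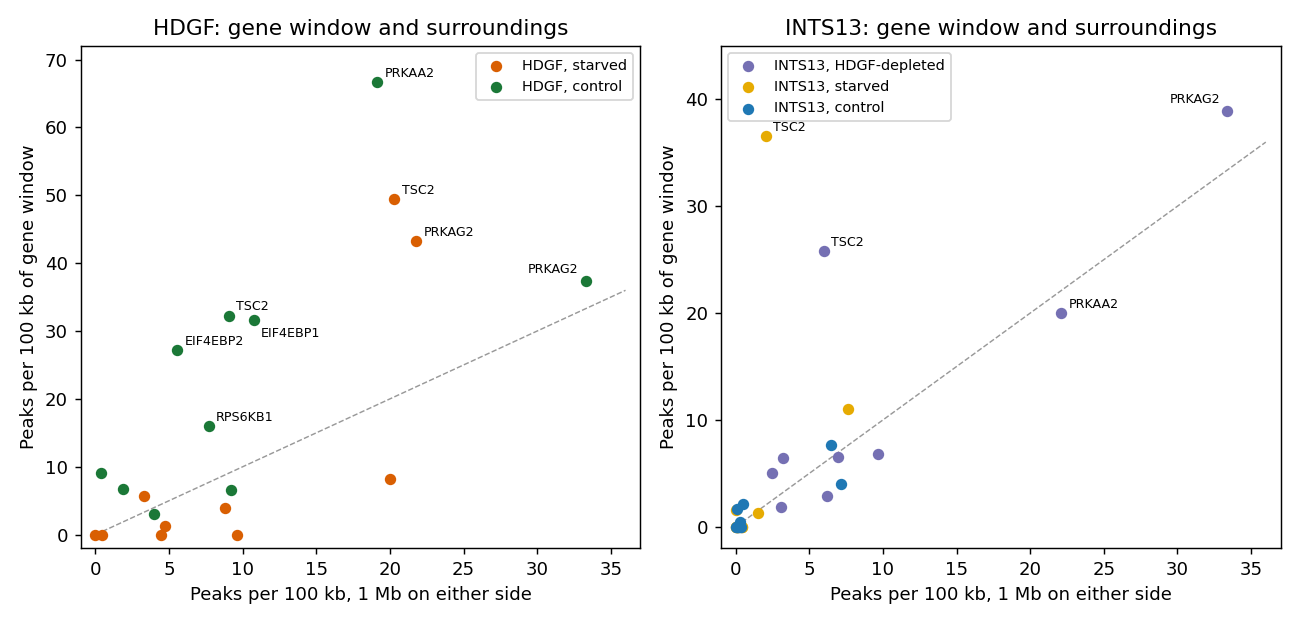
Peaks per 100 kb of gene window (vertical axis) against peaks per 100 kb over 1 Mb on either side (horizontal axis) for the 10 genes, with HDGF on the left and INTS13 on the right. The dashed line marks equal values. TSC2 in the INTS13 list of starved cells sits at 36.6 over 2.05, and PRKAA2 in the HDGF list of control-depleted cells at 66.6 over 19.2.

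Summits were also set against the starts of the 9 genes that have one in the table. A summit within 100 bp of a start was listed for INTS13 at 4 of 9 genes after HDGF depletion (PRKAA2, PRKAG2, TSC1 and RPS6KB1), at 2 in starved cells (PRKAA2 and RPS6KB1) and at 1 in control-depleted cells (TSC1). The background over 15843 protein-coding genes with a start was 2.75% after HDGF depletion, 2.71% in starved cells and 1.28% in control-depleted cells. For HDGF it was 1 of 9 in starved cells (PRKAG2, at an inner start) and 0 of 9 in control-depleted cells, against 2.12% and 0.656% of genes. Within 2500 bp of a start, HDGF summits stood at 3 of 9 genes in starved cells and 5 in control-depleted cells, against 24.2% and 33.0% of genes. INTS13 summits stood at 6 of 9 after HDGF depletion, 3 in starved cells and 1 in control-depleted cells, against 26.3%, 7.18% and 5.97% of genes. A gene was counted where a summit lay by any of its annotated starts. PRKAG2 has 5 such starts and many peaks in every list, which gives it more places to be counted. With 9 genes, each of these counts is imprecise. The count within 100 bp for other genes of these pathways is given below.

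**Figure D5:**
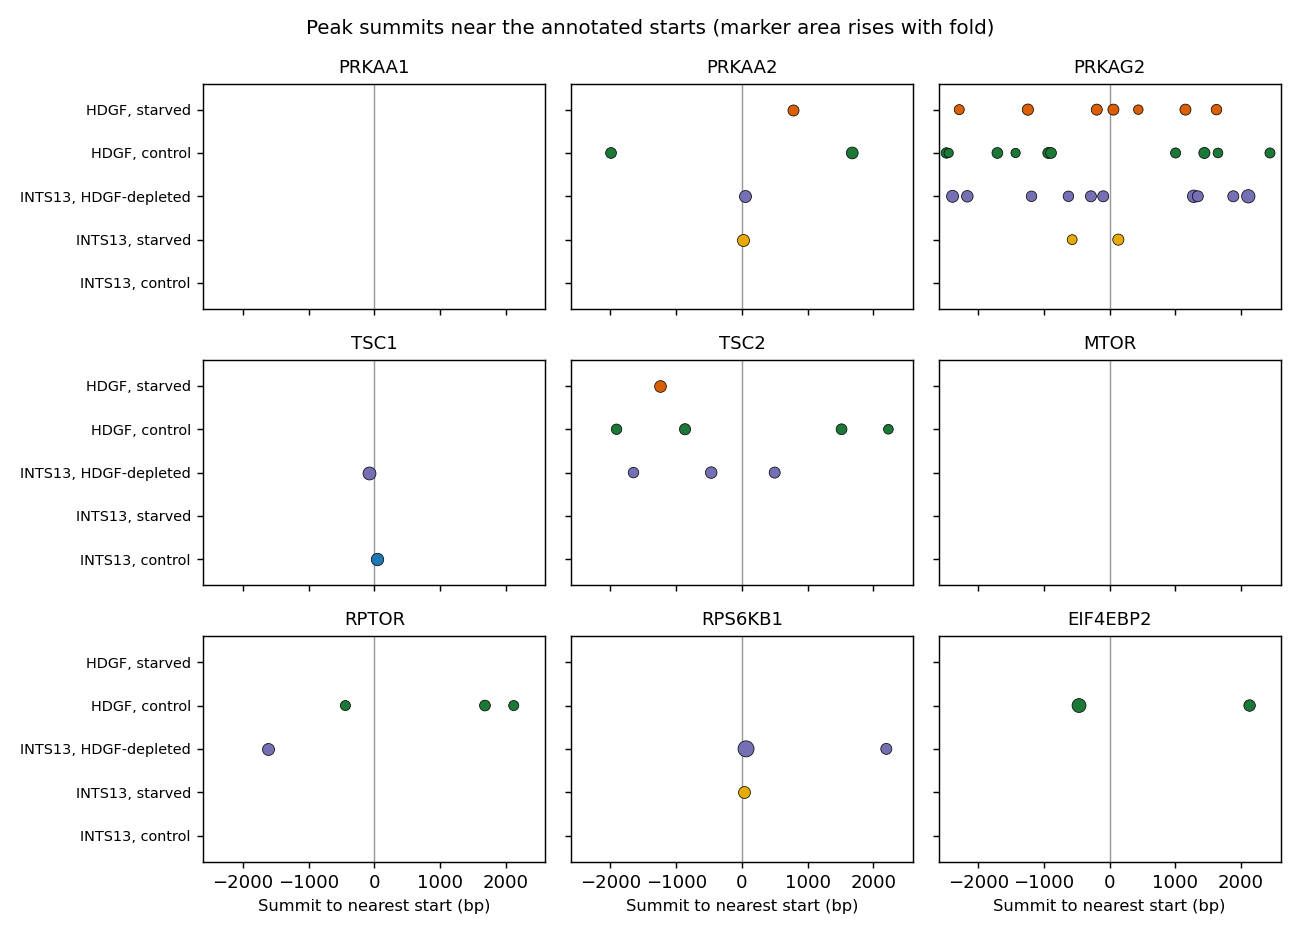
Summits within 2500 bp of an annotated start for the 9 genes with a start in the promoter table, by distance from the nearest start in bp (horizontal axis, positive inside the gene) and by list (rows). Marker area rises with the authors' fold, from 2.47 to 5.39 among these summits. The INTS13 summits of HDGF-depleted and starved cells stand on the start at PRKAA2 and RPS6KB1, those of HDGF-depleted and control-depleted cells at TSC1, and PRKAA1 and MTOR have none.

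For HDGF, peaks of starved and control-depleted cells overlapped at 4 of the 10 genes, PRKAA2, PRKAG2, TSC2 and RPTOR, against 17.0% of all protein-coding genes. Shares of genes here and in the comparisons of lists below cover genes of every length. The members are longer than most, and no share among genes of like length was made for overlaps. Of the 206 peaks of starved cells 57 overlapped one of control-depleted cells (27.7%), and of the 257 of control-depleted cells 63 did (24.5%). Over all HDGF peaks the shares were 34.9% in starved cells and 21.0% in control-depleted cells. At PRKAA1, TSC1, RPS6KB1 and EIF4EBP2 HDGF peaks were listed in control-depleted cells and not in starved cells, a state found at 18.2% of genes. The reverse was found at 0 of 10 members and at 9.57% of genes. MTOR and EIF4EBP1 had peaks in both lists at different places.

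For INTS13 after HDGF depletion, peaks overlapped those of control-depleted cells at 3 genes, PRKAG2, TSC1 and TSC2, against 6.67% of genes. A peak in HDGF-depleted cells with none in control-depleted cells was found at MTOR, RPS6KB1, EIF4EBP1 and EIF4EBP2, against 38.7% of genes, which is close to the members' 4 of 10. A peak in control-depleted cells with none after HDGF depletion was found at 0 members and 0.704% of genes. Of 195 peaks after HDGF depletion 15 overlapped one of control-depleted cells (7.69%), and of 32 of control-depleted cells 15 did (46.9%). Over all INTS13 peaks these shares were 14.4% and 50.3%. For INTS13 in starved cells, peaks overlapped those of control-depleted cells at PRKAG2 alone, against 3.51% of genes, with 3 of 55 peaks of starved cells (5.45%) and 3 of 32 of control-depleted cells (9.38%). Over all INTS13 peaks these shares were 40.6% and 22.2%. A peak in starved cells only was found at RPS6KB1 (4.73% of genes) and one in control-depleted cells only at TSC1 and RPTOR (6.29% of genes). Both INTS13 comparisons share the control-depleted list.

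INTS13 and HDGF peaks were also set against each other within a condition. In starved cells they overlapped at PRKAG2 and TSC2, against 6.91% of genes, and there 44 of the members' 55 INTS13 peaks overlapped an HDGF peak (80.0%) and 35 of their 206 HDGF peaks overlapped an INTS13 peak (17.0%). Over all peaks of starved cells the shares were 72.0% for INTS13 and 15.01% for HDGF. At TSC2 16 of 17 INTS13 peaks did so, and 14 of 17 summits fell inside an HDGF peak (82.4%) where HDGF covered 67.6% of the window. At PRKAG2 28 of 36 INTS13 peaks did so, and 24 of 36 summits fell inside an HDGF peak (66.7%) where HDGF covered 22.8% of the window. In control-depleted cells INTS13 and HDGF peaks overlapped at PRKAA2 and PRKAG2, against 5.39% of genes, with 10 of 32 INTS13 peaks (31.3%) and 10 of 257 HDGF peaks (3.89%), where all peaks gave 45.04% and 10.8%. At PRKAG2 in control-depleted cells 4 of 25 INTS13 summits fell inside an HDGF peak (16%), about the 15.8% of the window that HDGF covered. Both antibodies came from Proteintech in starved cells, and from Proteintech (HDGF) and Bethyl (INTS13) in control-depleted cells, and the part of the antibodies in this overlap was not tested. In starved cells INTS13 peaks without any HDGF peak were found at RPS6KB1 (1.51% of genes), and HDGF peaks without INTS13 at MTOR, RPTOR and EIF4EBP1 (30.9% of genes). In control-depleted cells no member had INTS13 without HDGF (1.70% of genes), and HDGF without INTS13 was found at PRKAA1, MTOR, RPS6KB1, EIF4EBP1 and EIF4EBP2 (38.2% of genes).

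A further 53 genes of the same pathways were counted by a summit within 2500 bp of either end of the gene. By that count HDGF was found at 29 of them in starved cells (54.7%) and 33 in control-depleted cells (62.3%), against 31.2% and 35.6% of all protein-coding genes. INTS13 was found at 26 after HDGF depletion (49.1%), 6 in starved cells (11.3%) and 7 in control-depleted cells (13.2%), against 31.2%, 8.48% and 7.44% of genes. The 10 members had HDGF at 5 in starved cells and 7 in control-depleted cells by the same count, and INTS13 at 7 after HDGF depletion, 3 in starved cells and 2 in control-depleted cells. Of the 53 genes, 45 had a start in the promoter table. INTS13 had a summit within 100 bp of a start at 1 of these 45 after HDGF depletion (2.22%), 3 in starved cells (6.67%) and 1 in control-depleted cells (2.22%). HDGF had one at 2 in starved cells (4.44%) and 0 in control-depleted cells. INTS13 close to a start after HDGF depletion was thus not shared by the wider pathway genes.

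The other AMPK subunits and the kinases upstream of AMPK, 8 genes, had HDGF at 3 in starved cells and 5 in control-depleted cells. At STK11, which encodes the AMPK-activating kinase LKB1, the strongest HDGF summits lay at different ends of the gene, 20201 bp past the start and over CBARP in starved cells and 1990 bp past the start in control-depleted cells. INTS13 was found at 3 of these 8 genes after HDGF depletion, 0 in starved cells and 0 in control-depleted cells. The other mTOR complex subunits, 6 genes, had HDGF at 4 in both lists and INTS13 at 3, 1 and 0 after HDGF depletion, in starved and in control-depleted cells. At MAPKAP1, which encodes the mTORC2 subunit SIN1, the single INTS13 summit of starved cells lay 69 bp past the start with a fold of 2.78. Among the 5 genes of TSC, Rheb and Akt inputs, DDIT4, which encodes the mTORC1 inhibitor REDD1, held INTS13 in all 3 lists. Its strongest summit lay 467 bp before the start after HDGF depletion, 34 bp past it in starved cells and 1659 bp past it in control-depleted cells, with folds of 3.46, 2.89 and 3.11.

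Among the 11 Rag GTPase and Ragulator genes, which bring mTORC1 to the lysosome, HDGF was found at 4 in starved cells and 7 in control-depleted cells. RRAGA, which encodes RagA, had an INTS13 summit within 2500 bp in all 3 lists, but beside other genes too. After HDGF depletion the strongest summit lay at 19052166, by HAUS6, with a fold of 4.04. In starved cells it lay at 19049298 and in control-depleted cells at 19049224, both by SAXO1, with folds of 5.67 and 4.46. Among the 15 GATOR and amino acid sensor genes, HDGF was found at 9 in starved cells and 10 in control-depleted cells. SESN2, a stress-induced inhibitor of mTORC1, had INTS13 near its start in every list. Its INTS13 summit lay 119 bp past the start after HDGF depletion, 33 bp in starved cells and 71 bp in control-depleted cells, with folds of 5.20, 4.57 and 4.19. Among the 8 mTORC1 and AMPK target genes, HDGF was found at 5 in starved cells and 4 in control-depleted cells. RPS6, which encodes the ribosomal protein that S6 kinase phosphorylates, had its strongest HDGF summit 1879 bp past the start in starved cells (fold 2.90). In control-depleted cells the strongest was another peak, 4701 bp past the start and also beside DENND4C (fold 5.60). INTS13 was found at 3 of these 8 after HDGF depletion, 0 in starved cells and 1 in control-depleted cells.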

How the data were processed

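ChIP-seq peak lists of HDGF and INTS13 in HEK293T cells were used as deposited, 1 list for each of 5 groups. Reads had been through FastQC, Trimmomatic, Bowtie, Picard and MACS2 on hg38, per the submitters' processing notes, which give no versions. How replicates and inputs entered peak calling is not given in the sources used here, and the 6 input samples were not analysed here. Each deposited peak carries the authors' integer score, fold enrichment (a ratio), −log10 p and −log10 q, and a summit. Reads at a summit and the mean background were solved from the deposited folds and −log10 p values. The fold was taken as scaled reads plus 1 over scaled background plus 1, and p as a Poisson upper tail. The solver was tested on simulated data. No other depth was used.

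Genes, starts and promoters came from RefSeq tables (GRCh38.p14), which matched all 10 members by symbol, 9 with a start. Exons and introns were not used here. A gene window was the gene and 2500 bp on either side, and an overlap of peaks needed at least 1 shared base. Intervals are exact (Clopper-Pearson for shares, Poisson for counts) at 95%. All 10 members are named, with their strongest peak by −log10 q. Of other pathway genes up to 3 per role and list were eligible by −log10 q. The members and lists were chosen with earlier results of these data known. Python 3.11.15, pandas 2.3.3 and scipy 1.17.1 were used. Alternatives were other windows, a −log10 q of at least 3, lists cut to equal length, stricter overlap, and leaving out the longest gene or PRKAG2.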

Additional observations from a re-analysis of the deposited data

How the results depend on the processing

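Counts of genes depended most on list length and on the window. With the lists cut to their 15639 strongest peaks, INTS13 peaks stood at 4 members after HDGF depletion and 3 in control-depleted cells. Under that setting overlapping peaks stood at 2 members for HDGF and at 0 for INTS13 after HDGF depletion against control-depleted cells, for INTS13 in starved against control-depleted cells, and for INTS13 against HDGF in control-depleted cells. With a summit within 2500 bp of either end, INTS13 in control-depleted cells stood at 2 members. Overlaps then stood at 2 for HDGF, 0 for INTS13 in starved against control-depleted cells, and 1 for INTS13 against HDGF in control-depleted and 1 in starved cells. A −log10 q of at least 3 left INTS13 in control-depleted cells at 3 members. Requiring 50% of both peaks left 1 member for INTS13 against HDGF in starved cells. Apart from single lists counted by a summit near either end, shares of all protein-coding genes under these settings are not given here. These falls therefore cannot be set against those over all genes. No count moved by over 1.5 times with 1000 bp on either side, no flank, summits inside the window, or summits within 250 bp. Peaks per 100 kb over the members' windows moved under most settings. Leaving out PRKAG2, chosen after seeing the data, gave HDGF 6.92 in starved cells and 14.4 in control-depleted cells, against 16.3 and 20.3 with it. It gave INTS13 7.24 after HDGF depletion, 2.02 in starved cells and 0.746 in control-depleted cells, against 15.4, 4.35 and 2.53. The order of the HDGF values turned at a −log10 q of at least 3 (9.72 in starved and 8.62 in control-depleted cells) and at equal length (3.48 and 2.21), and that of INTS13 after HDGF depletion and in starved cells at equal length (1.26 and 4.35). No paired analysis was possible because each group has 1 peak list and no test was made, and for the same reason no replicate could be left out. The background of 4.20 to 15.2 reads per position limits what a list can show, so a missing peak means none was listed.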

Other observations

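Among the wider pathway genes, several held very different numbers of HDGF peaks along their windows in starved and control-depleted cells. They are named here after their values were seen, and no difference was tested. The counts are raw and come from HDGF lists of unequal length, 68138 peaks in starved cells and 106674 in control-depleted cells. They were not set against gene length, surroundings, lists of equal length or the share of all genes with such a difference. They therefore do not show a difference particular to these genes. AKT1, which encodes a kinase upstream of mTORC1, held 21 HDGF peaks in starved cells and 3 in control-depleted cells. ULK1, the autophagy kinase that AMPK and mTORC1 both phosphorylate, held 18 in starved cells and 2 in control-depleted cells. PRR5, which encodes an mTORC2 subunit, held 14 in starved cells and 2 in control-depleted cells. The reverse held at DEPDC5 of the GATOR1 complex, with 14 in starved cells and 61 in control-depleted cells, and at MAPKAP1, with 5 in starved cells and 35 in control-depleted cells. RHEB, the GTPase that activates mTORC1, lies within 1 Mb of PRKAG2 and held 22 HDGF peaks in starved cells and 42 in control-depleted cells.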
